A study of Rattus norvegicus with 4 samples.

Results

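The phagocyte NADPH oxidase is the enzyme with which macrophages and neutrophils turn oxygen into superoxide. Its subunits and close partners were followed here as 8 genes, Cybb, Cyba, Ncf1, Ncf4, Rac1, Rac2, Nox4 and Hvcn1. Every probe that was not a control and whose gene name on the array was one of these symbols, or an older rat alias of one, was taken. The naming rule uses no measured value, but the 8 genes were chosen with earlier results of these data known. The 8 genes had 11 probes on 29 spots, out of 18827 named genes, 45598 probes and 58717 non-control spots.

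RNA came from NR8383, an established line of rat alveolar macrophages grown from the lung lavage of a normal animal, which grows partly attached and partly floating. The 4 samples form a single group labelled as submerged control: cells after 20 passages, covered by DMEM with 2 mM L-glutamine, 15% fetal bovine serum, penicillin, streptomycin and amphotericin B, with no genetic change and no further agent named in the labels. The design text gives 4 h of submersion and the treatment protocol 48 h from seeding, and whether these are separate intervals was not settled. The design text calls the samples biological replicates, but no label names separate cultures, so the p-values below measure the spread between these samples, which may be partly technical. With 1 group there is no comparison between conditions, and the questions the design allows are which subunits were detected and how far each one varied between the 4 arrays. In a bulk RNA measurement, fewer cells with a transcript and less of it per cell cannot be told apart.

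In a resting phagocyte the oxidase lies in separate pieces. The membrane piece is a flavocytochrome made of Cybb (gp91phox, or Nox2), which carries the electrons, and Cyba (p22phox), which stabilises it and offers a docking site. The cytosolic piece, which holds Ncf1 (p47phox) and Ncf4 (p40phox), moves to the membrane once Ncf1 is phosphorylated, and a Rac GTPase in its GTP form joins it there. Electrons then pass from NADPH across the membrane to oxygen, and the voltage-gated channel Hvcn1 carries protons the same way and balances their charge. Nox4 is a relative of Cybb that also pairs with Cyba, works without the cytosolic subunits, and is best known from kidney, vessel wall and other tissues that are not phagocytes.

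Each reading rests on the hybridisation of a probe of 60 bases, so the probes themselves define what was measured. Of those printed here, the Cybb, Ncf4, Rac1 and Nox4 probes show 1 member each of the catalytic, cytosolic, GTPase and undetected parts, and the Hvcn1 probe is a second reading of the proton channel that lay outside the naming rule. Letters are lower case, and capitals mark the run of 16 bases that the Cybb probe shares with 2 probes for Rnf8. No other printed probe shares a run of 16 bases with a probe for another gene.
Cybb: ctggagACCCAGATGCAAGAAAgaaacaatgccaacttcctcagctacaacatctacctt
Ncf4: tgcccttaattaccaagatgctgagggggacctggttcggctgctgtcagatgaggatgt
Rac1: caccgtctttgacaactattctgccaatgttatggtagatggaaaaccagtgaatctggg
Nox4: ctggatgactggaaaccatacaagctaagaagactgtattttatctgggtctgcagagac
Hvcn1 by description: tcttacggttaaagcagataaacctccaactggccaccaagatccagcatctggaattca

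These sequences and the positions below are those the array files give, on the rat assembly rn4, and no exon or UTR annotation of that build was used. The printed Cybb probe lies at chrX:25518505-25518564 on the minus strand and the printed Ncf4 probe at chr7:116190216-116190275 on the plus strand. The printed Rac1 probe spans chr12:11390067-11391924, or 1858 bases of genome, on the plus strand. The printed Nox4 probe spans chr1:143584026-143586154, or 2129 bases, also on the plus strand. A probe of 60 bases that covers so much genome crosses a splice junction, so these 2 probes read spliced RNA. The second Hvcn1 probe lies at chr12:35538111-35538170 on the minus strand.

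Signal is given as the scanner's processed fluorescence units. The level of a probe is its log2 signal minus the 75th percentile of the non-control spots on the same array, so that 0 marks that percentile. The percentile was 1317, 1489, 1179 and 958 units on replicates 1 to 4. Pairs of arrays differed by an SD of 0.21 to 0.33 log2 over the detected probes in the 6 pairs. The dimmest signal called well above background was between 13.4 and 19.8 units. Of the macrophage markers, 8 of 8 were detected. The lysosomal protein Cd68 lay at 4.74 ± 0.05 (SD, n = 4) and the growth factor receptor Csf1r at -0.02 ± 0.10, by 1 of its 2 probes. The transcription factor Spi1 lay at -0.43 ± 0.12. The integrin chain Itgam had the largest SD of the 8, at -0.90 ± 0.74 by the brightest of its 3 probes. Spi1 is known to drive transcription of several oxidase genes in myeloid cells. Probes bind with different strength, so levels of different probes are not set against each other.

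Of the 8 genes, 7 were detected on all 4 arrays, beside 10333 of the 18827 named genes, or 54.9%. Of their 11 probes 9 were detected, beside 19400 of all 45598 probes, or 42.5%. The exception was Nox4, whose 2 probes were detected on no array. Each of the 7 detected genes had all of its probes detected. Ncf1 and Rac1 had 2 probes each, while Cybb, Cyba, Ncf4, Rac2 and Hvcn1 were each called on 1 probe, the only one under the naming rule.

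**Figure D1:**
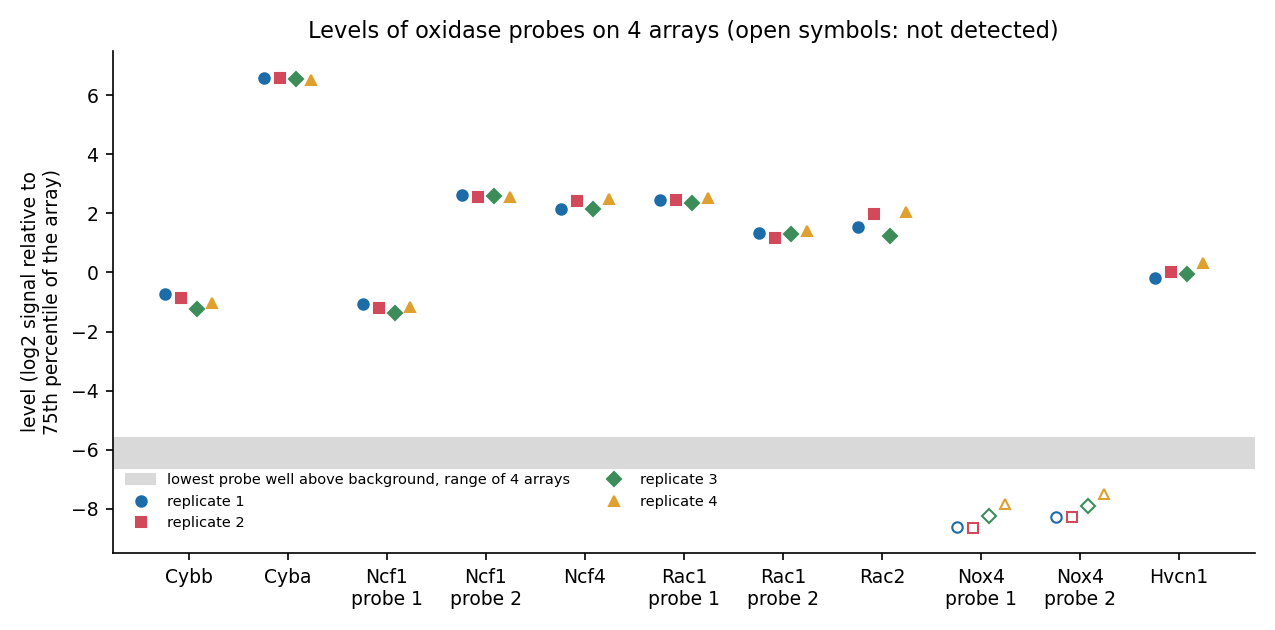
Level (log2 signal relative to the 75th percentile of the array) of each of the 11 oxidase probes on the 4 arrays; colours and symbols mark replicates, open symbols probes that were not detected, and the grey band the lowest level called well above background. The 9 detected probes lie far above the band and the 2 Nox4 probes below it; Ncf1 probe 1 is A_43_P12916 and Rac1 probe 1 is A_44_P162583.

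The flavocytochrome was represented in full. Cyba gave 124527, 142222, 110977 and 87524 units on replicates 1 to 4 from a probe at chr19:52713156-52713215 on the minus strand, printed on 10 spots. Relative to each array's percentile these are levels of 6.56, 6.58, 6.56 and 6.51. The order of the raw signals followed the brightness of the arrays, and after scaling the 4 values lay within a factor of 1.05. The mean level was 6.55 with an SD of 0.028, and 1.77% of the detected probes had an SD as small or smaller. With the arrays scaled on their spike-in controls instead, the Cyba levels were 6.96, 6.97, 6.36 and 5.92, a spread of 2.07-fold, so the evenness of Cyba was seen relative to the 75th percentile and not relative to the added RNA.

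Cybb, the catalytic subunit, gave 797, 818, 499 and 463 units on replicates 1 to 4. Its levels were -0.73, -0.86, -1.24 and -1.05, a mean of -0.97 ± 0.22 (SD, n = 4). Replicates 1 and 2 were above replicates 3 and 4, and the highest was 1.43-fold the lowest. In a test of whether a probe varied more between arrays than probes of like signal (limma's residual variance against a prior that follows signal), the Cybb probe had an adjusted p of 0.85 and so did not pass the threshold of 0.05.

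The ratio of Cybb to Cyba within an array is free of any scaling that shifts all probes of an array alike. Quantile normalization and normexp are not such shifts and can change it. Set on its own mean over the 4 arrays, the log2 ratio was 0.23, 0.08, -0.28 and -0.04 on replicates 1 to 4. The ratio was thus highest on replicate 1 and lowest on replicate 3, a spread of 1.42-fold.

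The cytosolic subunits Ncf1 and Ncf4 were detected with every probe. Ncf1, the organiser that is phosphorylated on activation, had 2 probes. The brighter, at chr12:23587232-23587291 on the plus strand, gave 8176, 8697, 7077 and 5580 units and levels of 2.63, 2.55, 2.59 and 2.54. Its mean level was 2.58 ± 0.04 (SD, n = 4), and the arrays lay within 1.07-fold of each other. This probe shares a run of 19 bases with a probe for Wibg. The dimmer one, at chr12:23585727-23585786, gave 635, 642, 454 and 423 units and levels of -1.05, -1.21, -1.38 and -1.18, with a mean of -1.21 ± 0.13. The difference between the 2 Ncf1 probes varied by an SD of 0.124 over the arrays, and by 0.037 without replicate 3, where the dimmer probe was low. Neither probe passed limma's variance test (adjusted p of 0.997 and 0.996).

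Ncf4, which binds a membrane lipid of the phagosome and helps to keep the oxidase active there, gave 5767, 8042, 5175 and 5408 units. Its levels were 2.13, 2.43, 2.13 and 2.50, a mean of 2.30 ± 0.19 (SD, n = 4). Replicates 2 and 4 lay above replicates 1 and 3, by the 75th percentile, the median, quantile and normexp settings, while with spike-in scaling replicates 1 and 2 were the higher pair. The variance test of limma gave an adjusted p of 0.81 for Ncf4.

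Rac1 and Rac2 are the GTPases that switch the oxidase on: Rac1 is found in most cells and Rac2 mainly in blood-forming cells. Rac1 had 2 probes. The one at chr12:11401260-11401319 on the plus strand gave 7269, 8141, 6075 and 5451 units and levels of 2.46, 2.45, 2.36 and 2.51, with a mean of 2.45 ± 0.06 (SD, n = 4). The splice-spanning probe gave 3312, 3368, 2903 and 2552 units and levels of 1.33, 1.18, 1.30 and 1.41, with a mean of 1.30 ± 0.10. The lowest array was replicate 3 for the first of these probes and replicate 2 for the splice-spanning one. Their difference varied by an SD of 0.092, about as much as the splice-spanning probe itself, and by 0.034 without replicate 2. Neither Rac1 probe passed limma's variance test.

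Rac2 had the largest SD of the 9 detected oxidase probes on the 75th percentile scale; with spike-in scaling Cybb had it, at 0.67 beside 0.58. Its probe, at chr7:116520067-116520126 on the minus strand and printed on 10 spots, gave 3796, 5886, 2769 and 3934 units. The levels were 1.53, 1.98, 1.23 and 2.04, a mean of 1.69 ± 0.38 (SD, n = 4). Replicates 2 and 4 were high and replicate 3 was the lowest, 1.75-fold under the highest. With spike-in scaling the levels were 1.92, 2.37, 1.03 and 1.44. Replicate 3 stayed lowest, but replicate 2 was now the highest in place of replicate 4, which was no longer among the high arrays.

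The Rac2 SD was 4.05 times that of probes of like signal, and 5.79% of the detected probes had an SD as large or larger. In the variance test of limma the Rac2 probe was at place 234 of 19400 by p, with an adjusted p of 0.18. Rac2 therefore did not pass at the threshold of 0.05, and with normexp background correction it did (adjusted p = 0.026), as it did with no filter on dim probes (2.2e-06). Over all settings run its adjusted p lay between 2.2e-06 and 0.92.

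The 10 printed spots separate the reading error within an array from the difference between arrays. For Rac2, 9 of the 10 spots were used on each array, and they lay between 3569 and 3949 units on replicate 1, 5302 and 6125 on replicate 2, 2540 and 2879 on replicate 3, and 3664 and 4150 on replicate 4. The spots varied within an array by an SD of 0.052 to 0.065 log2, and the standard error of an array's mean was at most 0.022. The SD between arrays was 17.8 times that error. For Cyba the same ratio was 0.963, with spots that varied by an SD of 0.039 to 0.088. On the 75th percentile scale the Rac2 differences were thus far larger than spot noise and the Cyba differences were not. The second part depends on the scale, since beside a standard error of at most 0.029 the Cyba SD between arrays was 0.115 with quantile normalization and 0.51 with spike-in scaling. Spots on 1 array share the labelled RNA, so this error holds neither culture nor labelling variation.

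**Figure D2:**
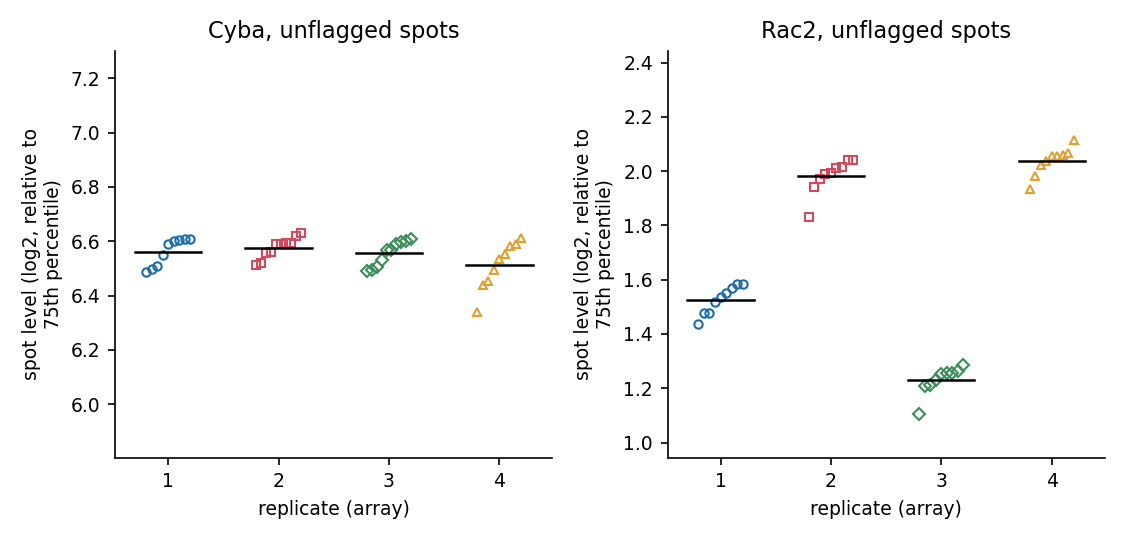
Level (log2 relative to the 75th percentile of the array) of each unflagged spot of the Cyba probe (left) and the Rac2 probe (right) on the 4 arrays, on axes of different position; horizontal lines are array means. The Cyba spots overlap on all arrays around 6.55, while the Rac2 spots of replicates 2 and 4 lie above those of replicates 1 and 3, an order that does not hold with spike-in scaling.

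Because Rac1 and Rac2 were read on the same arrays, their difference is free of any scaling that shifts all probes of an array alike. The log2 difference of Rac1 (brighter probe) minus Rac2 was 0.94, 0.47, 1.13 and 0.47 on replicates 1 to 4. It was larger on replicates 1 and 3 and smaller on replicates 2 and 4, a spread of 1.59-fold. Cyba minus Rac2 spread by 1.80-fold over the arrays, and Cyba minus Ncf1 by 1.07-fold with the brighter Ncf1 probe and by 1.25-fold with the dimmer one.

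Hvcn1, the proton channel, gave 1161, 1504, 1129 and 1204 units from a probe at chr12:35537254-35537313 on the minus strand. The levels were -0.18, 0.01, -0.06 and 0.33, a mean of 0.02 ± 0.22 (SD, n = 4). Replicate 4 was the highest and replicate 1 the lowest, 1.43-fold apart; with spike-in scaling replicates 3 and 4 were the lower pair, at -0.26 each. The variance test of limma gave an adjusted p of 0.80 for Hvcn1. A second probe, which the array names by a transcript number and describes as Hvcn1, gave levels of -0.79, -0.56, -0.61 and -0.26, a mean of -0.56 ± 0.22. The difference between the 2 Hvcn1 probes varied by an SD of 0.025, or by 1.04-fold at most, so different stretches of the transcript gave nearly the same differences between arrays.

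**Figure D3:**
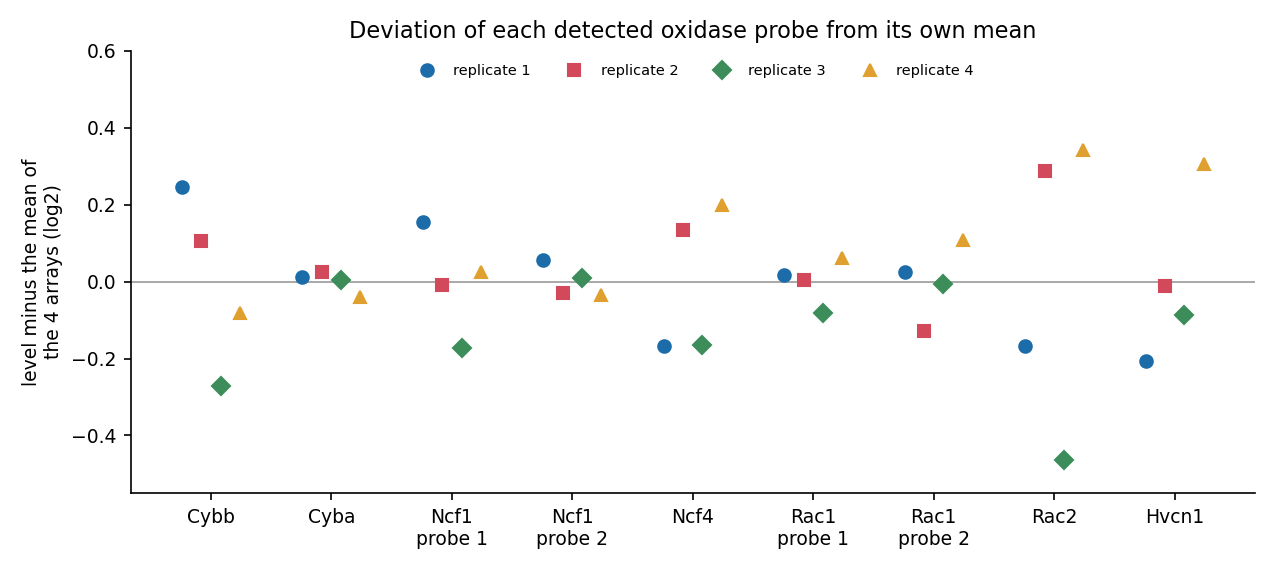
Level minus the probe's own mean over the 4 arrays (log2) for each of the 9 detected oxidase probes, with colours and symbols for replicates. On the 75th percentile scale Cyba and the brighter Ncf1 probe (probe 2) stay near 0, and Rac2, Ncf4 and Hvcn1 have replicates 2 and 4 above replicates 1 and 3, which was not so with spike-in scaling.

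Replicates 2 and 4 both lay above replicates 1 and 3 for 3 of the 9 detected probes, those of Rac2, Ncf4 and Hvcn1, when arrays were scaled on the 75th percentile. Over all 19400 detected probes that order was found for 3374, or 17.4%. The order was picked after the values were seen, so these counts are a description and not a test. The order was lost for the 3 genes under spike-in scaling, where replicates 1 and 2 were above replicates 3 and 4 for each of the 7 detected members. The 8 bright spike-in probes lay 1.86, 1.87, 2.46 and 2.85 log2 above the 75th percentile on replicates 1 to 4, and that shift moves every gene alike.

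Nox4 was read by 2 probes. The splice-spanning one gave 3.39, 3.75, 3.92 and 4.18 units on replicates 1 to 4. The other, at chr1:143604665-143604724 on the plus strand, gave 4.24, 4.80, 4.91 and 5.25 units. All 8 readings lay under the 13.4 to 19.8 units that were the lowest called well above background, so the Nox4 transcript was not detectable at the sensitivity of these arrays. Whether a probe had failed was not tested.

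In the variance test of limma, 33 of the 19400 detected probes passed an adjusted p of 0.05, or 0.17%, with a smallest adjusted p of 0.0131. None of the 9 oxidase probes was among them. At an unadjusted p under 0.05, 1 of the 9 was found, that of Rac2, beside 1261 of all detected probes, or 6.5%. The median SD of the 9 probes was 0.134, beside 0.126 for all detected probes, and 5 of the 9 were above that median. Over the 7 detected members, each by its brightest probe, the median SD was 0.19. The SD was 1.96 times that of limma's prior at like signal for Cybb, 2.06 for Ncf4, 2.10 for Hvcn1 and 4.05 for Rac2. For the Ncf1 and Rac1 probes it was 0.45 to 1.13 times. By p in limma's variance test, Cybb was at place 1633, Ncf4 at 1416 and Hvcn1 at 1313 of the 19400 probes. Their unadjusted p in that test were 0.072, 0.059 and 0.054. The SD of Cyba was 0.28 times that of the prior.

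**Figure D4:**
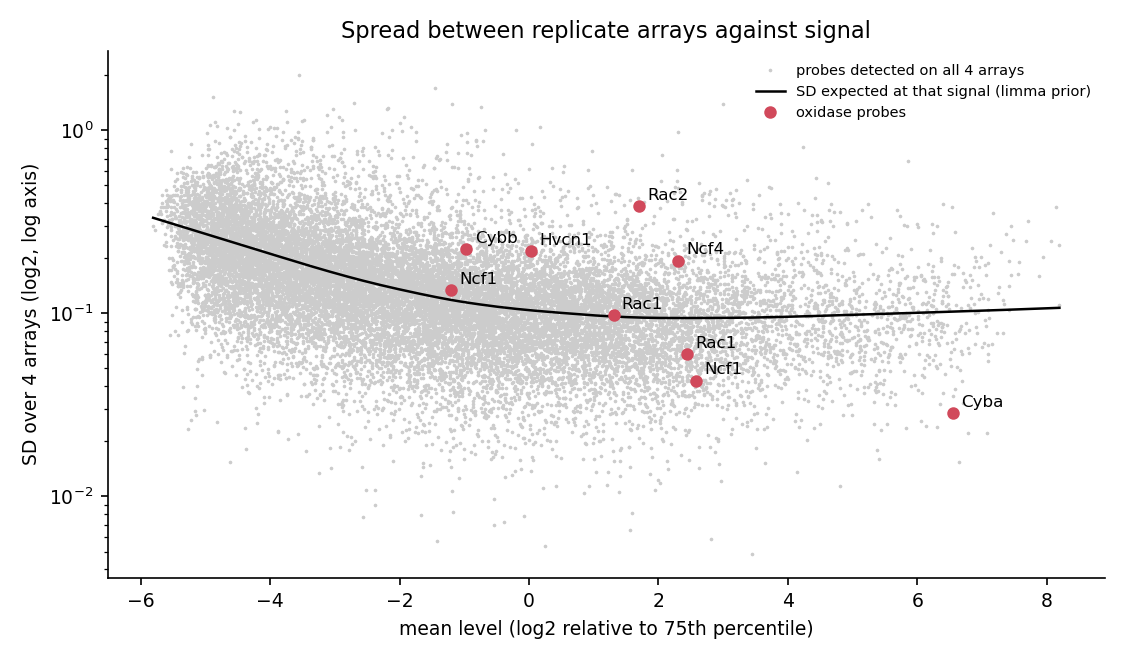
SD over the 4 arrays (log2, logarithmic axis) against the mean level (log2 relative to the 75th percentile) for the 19400 detected probes (grey) and the 9 oxidase probes (red); the line is the SD that limma's prior gives at that signal. Rac2, with an SD of 0.38, is the farthest above the line of the 9 oxidase probes and Cyba, with 0.028, the farthest below.

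Partners of the oxidase were read from 5 further lists. Of the other NOX and DUOX enzymes and their partners, 4 of 9 were detected. Cybc1, a chaperone needed for the Cybb and Cyba pair, had levels of -0.03, 0.11, 0.11 and 0.09 on replicates 1 to 4, a mean of 0.07 ± 0.07 (SD, n = 4). Replicate 1 was the lowest and the other arrays lay close together. Noxo1 and Noxa1, the organiser and activator that serve Nox1, lay at -4.06 ± 0.33 and -4.81 ± 0.36, and Duoxa2, a maturation factor of Duox2, at -3.45 ± 0.22; these 3 were named after their values were seen. Nox1 and Duox1 were each detected on 1 array of 4, and Nox3, Duox2 and Duoxa1 on none. The catalytic relatives of Cybb on the array, Nox1, Nox3, Nox4, Duox1 and Duox2, were thus all short of detection on 4 arrays by the rule of signal well above background. With the positive and significant flag as the rule, 6 of the 9 genes of this list were detected. That flag therefore called at least 1 of Nox1, Nox3, Duox1 and Duox2.

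Of the Rac and Rap GTPases and their regulators, 12 of 13 were detected. Rac3, a relative of Rac1 found mainly in nerve tissue, lay at -3.43 ± 0.22 (SD, n = 4). Rap1a, which copurifies with the flavocytochrome, lay at -2.67 ± 0.08 and its relative Rap1b at 1.35 ± 0.05. Cdc42, a GTPase closely related to Rac, lay at 4.91 ± 0.09. The exchange factor Tiam1 was detected on 3 arrays.

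Of the kinases and lipid enzymes of oxidase activation, 10 of 12 were detected. Among the protein kinase C forms that can phosphorylate Ncf1, Prkcd lay at 2.36 ± 0.16 (SD, n = 4) and Prkca at -1.43 ± 0.09, while Prkcb and Prkcz were detected on no array with 2 probes each. The list thus held detected and undetected forms of the same kinase family.

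Of the genes that dispose of superoxide and peroxide, 9 of 10 were detected. The cytosolic dismutase Sod1 lay at 5.06 ± 0.13 (SD, n = 4), the mitochondrial Sod2 at 1.47 ± 0.16 and catalase, Cat, at -2.15 ± 0.09. The secreted dismutase Sod3 was detected on 2 arrays. All 6 genes of NADPH supply, the substrate of the oxidase, were detected. The pentose phosphate enzyme Pgd lay at 1.42 ± 0.06, H6pd of the endoplasmic reticulum at -1.65 ± 0.09, Idh1 at 2.28 ± 0.03 and the malic enzyme Me1 at 1.68 ± 0.07. No member of these 5 lists passed limma's variance test.

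**Figure D5:**
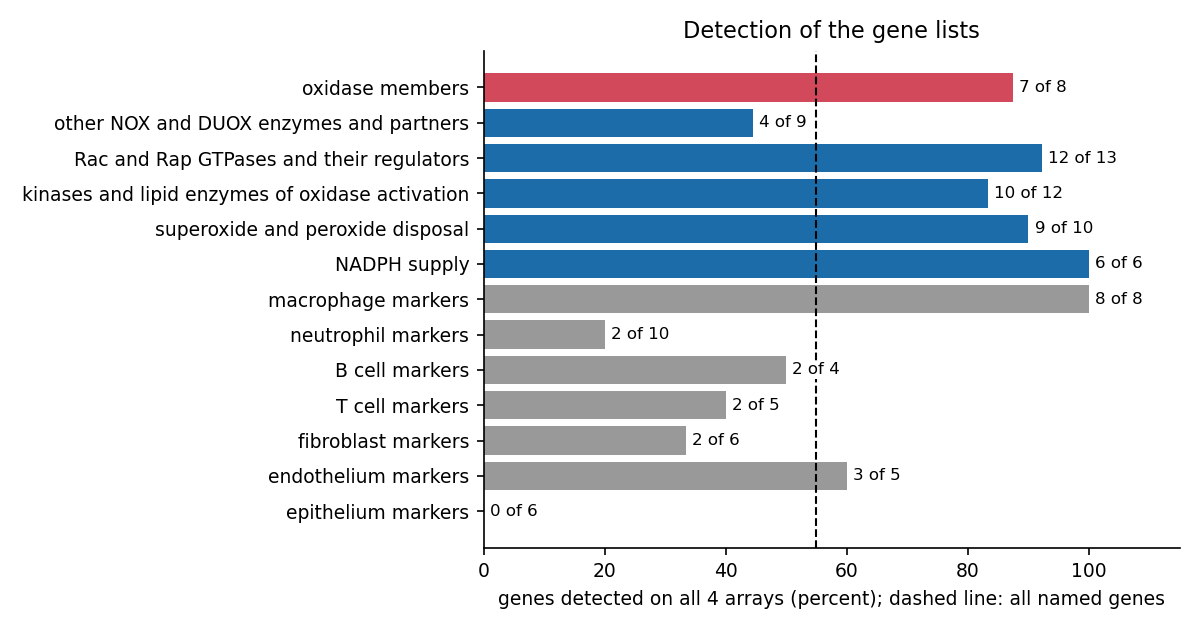
Share of genes detected on all 4 arrays (percent) for the oxidase members (red), the 5 partner lists (blue) and 7 lists of cell type markers (grey); the dashed line is the share of all named genes, 54.9%. The oxidase bar stands at 7 of 8, and the neutrophil and epithelium bars are the lowest, at 2 of 10 and 0 of 6.

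Neutrophils and B cells also hold the oxidase, so their markers were read beside it. Of 10 neutrophil markers 2 were detected, the granule peroxidase Mpo at -4.89 ± 0.30 (SD, n = 4) and the antimicrobial peptide Camp at -1.06 ± 0.20, the latter with 1 of its 2 probes. The granule proteins Elane, Prtn3 and Ltf were detected on no array, and neither were Ngp, S100a9, Csf3r and Mmp8. S100a8 was detected on 3 arrays. Of 4 B cell markers 2 were detected, Cd79a at -5.46 ± 0.15 and Pax5 at -2.22 ± 0.29, and the surface proteins Cd79b and Ms4a1 were not. Thus 8 of the 10 neutrophil markers and 2 of the 4 B cell markers were not detected on all 4 arrays.

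Of 5 T cell markers 2 were detected, Cd3d at -3.42 ± 0.24 (SD, n = 4) and Lck at -3.67 ± 0.18. Fibroblast markers were detected in 2 of 6 cases, Col1a2 at -3.54 ± 0.18 and Dcn at -2.24 ± 0.18. Endothelium markers were detected in 3 of 5 cases, Cdh5 at -3.88 ± 0.26, Vwf at 1.23 ± 0.27 and Pecam1, which macrophages also carry, at -0.70 ± 0.10. No epithelium marker of 6 was detected on all 4 arrays, among them the surfactant genes Sftpa1, Sftpb and Sftpc. Their part in the oxidase levels was not tested.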

How the data were processed

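From each of 4 samples 100 ng of RNA, with an integrity number of at least 7.5, was labelled with Cy3 and read on a rat expression array of Agilent's one-colour kind, per the labels' protocols. The deposited values are fluorescence intensity per spot, which Agilent Feature Extraction 11.0.1.1 had corrected for background, per the file headers and the submitters' processing notes. The arrays had not been brought to a common scale, and the detection and outlier flags used are the deposited ones. With 1 slide and 1 scan time no batch could be tested, and the number of arrays limits the precision.

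Each array held 62976 spots, and 0 non-control spots were saturated. Flagged outlier spots were dropped and the spots of a probe averaged. Detection of a probe required more than 0.5 of its spots to be well above background. Detection of a gene required 1 probe that passed on all 4 arrays, and the brightest such probe gave the gene's level. A RefSeq table of GRCr8 supplied names alone, through the accession for 23740 probes, the symbol for 5159 and a former symbol for 352; the other 16347 are under the names the array uses. The variance test used limma 3.58.1 (R 4.3.3) with a robust prior and a trend, and Benjamini-Hochberg adjustment over 19400 probes at 0.05. It was also run on simulated levels drawn from the means and prior SDs fitted to these data, which is no independent check. How far the simulated SDs scattered about that prior was set by hand and not fitted. Tables and plots used Python 3.11.15 with pandas 2.3.3, numpy 2.4.6, matplotlib 3.10.9 and scipy 1.17.1. The search for shared runs used 16 bases and covered the array's probes, not transcripts.

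The members and lists were chosen with earlier results of these data known. Genes named are the 8 members and, of each of 5 pathway and 7 marker lists, the first 4 symbols, members detected or not detected where 4 or fewer were, and any past the variance test; others were chosen after their values were seen. Some listed genes are not reported here and enter no list count. Alternatives were other detection rules, normexp (offset 50), quantile, median or spike-in scaling, flagged spots kept, other priors and thresholds, no filter on dim probes, the mean of the detected probes, and leaving out each replicate.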

Additional observations from a re-analysis of the deposited data

Results flagged for a closer look

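No oxidase probe had an array far from the other 3 by Dixon's rule, in which the gap of the extreme array to its neighbour is divided by the range and compared with the critical value for 4 samples. Of 41 levels examined, 3 exceeded it, or 7.32%, where chance gives about 5%. Cybc1, the chaperone of the flavocytochrome, was lowest on replicate 1 (0.835). Csf1r was lowest on replicate 2 (0.902), and the collagen gene Col1a2 was lowest on replicate 3 (0.833). The arrays that stood apart differed between these genes.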

How the results depend on the processing

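The count of 7 detected oxidase members held under all 8 alternatives run. The count of 33 probes past the variance test became 1121 with no filter on dim probes, 262 with normexp, 50 with the median of detected probes as scale, 1 with spike-in scaling, and 0 without the robust step, without the trend or at a threshold of 0.01; leaving out a replicate gave 0 (without replicate 3) to 75 (without replicate 1). Oxidase probes past it rose from 0 to 1, that of Rac2, with no filter and with normexp, and stayed at 0 to 0 with a replicate left out. The median SD of the members, 0.19, became 0.51 with spike-in scaling and 0.099 (without replicate 4) to 0.21 with a replicate left out. The SD of the difference between probes ranged from 0.037 to 0.15 for Ncf1 and from 0.034 to 0.11 for Rac1. The Cyba SD of 0.028 became 0.057 with normexp, 0.115 with quantile normalization, 0.51 with spike-in scaling and 0.011 without replicate 4. The mean of both probes put Ncf1 at 0.69 and Rac1 at 1.88. The median of detected probes raised each level by 1.58. Detected genes of the other NOX and DUOX list were 6 with the positive and significant flag. Detected neutrophil markers were 1 with every probe required, and 3 with that flag, on at least 2 arrays or without replicate 3. Epithelium markers were 3 with the positive and significant flag and 1 on at least 2 arrays. The causes were not tested. No paired analysis was possible because all 4 samples are of 1 group.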

Other observations

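Relative to each array's percentile, the arrays on which Rac2 was high were also those with high readings of the integrin chain Itgam. This chain forms the complement receptor of phagocytes and was read by 3 probes. On that scale replicates 2 and 4 lay above replicates 1 and 3 for 3374 of the 19400 detected probes, or 17.4%. With spike-in scaling Rac2 lay at 1.44 on replicate 4, below 1.92 on replicate 1, so the match is described for the percentile scale alone. The Itgam probes had levels of -2.85, -1.70, -2.61 and -1.37, of -1.42, -0.56, -1.59 and -0.03, and of -3.23, -2.24, -3.18 and -1.87 on replicates 1 to 4. Their adjusted p were 0.115, 0.065 and 0.152 in limma's variance test. The iron-carrier binding protein Lcn2, chosen after its values were seen, had levels of 2.06, 3.97, 1.57 and 4.37, or a spread of 6.94-fold. Its probe was at place 1 of the 19400 by p in limma's variance test, with an adjusted p of 0.0131. With 4 arrays no relation between these genes was tested.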
